A study of Homo sapiens with 24 samples.

Results

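The 9 genes described here are CD274, which encodes the checkpoint ligand PD-L1, and 8 genes of antigen presentation by MHC class I: HLA-B, HLA-C, B2M, TAP1, TAP2, TAPBP, PSMB8 and PSMB9. They were chosen by name, and make up 9 of the 27431 gene symbols (19 of 66321 RefSeq entries) in 3 genome-wide expression tables of a study of TFAP2C, which encodes the transcription factor AP-2gamma, in HER2-positive human breast carcinoma lines. The compared groups of 3 samples each were SKBR3 cells with TFAP2C siRNA (SKBR3 siAP2C) and with the negative control siRNA (SKBR3 siNT), HCC1954 cells with the same siRNAs (HCC1954 siAP2C and siNT), and HCC1954 cell clones with a stable lentiviral shRNA against TFAP2C (HCC1954 shAP2C) or with a negative control shRNA (HCC1954 shNT). The siRNA cells were transfected with Lipofectamine for 72 to 96 h, and all cells were at passage 5 to 10. The lines were not authenticated by the submitters, and the labels give 1 siRNA and 1 shRNA against TFAP2C and do not say how many clones the shRNA groups hold. Of these 9 genes, 0 are in a further table of 68 selected genes from HCC1569 cells. Levels are the authors' FPKM (fragments per kilobase of transcript, scaled to library size), 1 value per group with its 3 samples pooled, so no level has a replicate spread of its own and the depth is unknown. Here a gene's level is its FPKM summed over RefSeq entries, and a gene is said to rise or fall where the q-value in the authors' deposited table was under 0.05 for its most abundant tested entry. Separate cultures are not named for the 3 samples of any group, so the spread behind these q-values may be technical. In bulk RNA, fewer cells of a kind and less RNA per cell cannot be told apart.

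MHC class I molecules show peptides from inside the cell to CD8 T cells. The immunoproteasome subunits encoded by PSMB8 and PSMB9 cut proteins into peptides, the TAP1-TAP2 transporter moves peptides into the endoplasmic reticulum, and tapasin (TAPBP) holds an empty class I molecule at the transporter until a peptide binds. Class I heavy chains, among them HLA-B and HLA-C, reach the cell surface together with beta-2-microglobulin (B2M). PD-L1 binds PD-1 on T cells and dampens their response. Interferon-gamma, acting through JAK kinases and IRF1, induces these genes in many cell types, including carcinoma cells.

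CD274 lies on chromosome 9 (5450503 to 5470566, plus strand, GRCh37) and B2M on chromosome 15 (45003556 to 45011049, plus strand). The other 7 genes lie in the MHC on chromosome 6, and TAP2, PSMB8, TAP1 and PSMB9 share a stretch of 38019 bases there. In the deposited tables all 14 entries of those 7 genes are placed on alternate haplotype sequences of chromosome 6 (10 on chr6_ssto_hap7 and 4 on chr6_qbl_hap6), with 1 locus per entry. HLA-B, for example, is listed at chr6_ssto_hap7:2655402-2658781. The counting of reads that match several haplotypes is not stated, so the levels of these genes may hold only part of their signal. HLA-B and HLA-C are similar polymorphic genes between which reads can be split, TAP1 and PSMB8 are listed at 1 shared locus, and PSMB9 overlaps both in the annotation. Use of strand in counting is not stated, so reads of these neighbours may be mixed.

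Promoter windows of 6 of the 9 genes hold the letters of an interferon-stimulated response element, and these are shown because they include CD274 and the transporter, tapasin and PSMB8 genes described here. HLA-B, whose window did not hold these letters, was called in the same directions as most of them. Each window runs from 250 bases before to 50 bases after the transcription start, from RefSeq on GRCh38.p14, and capitals mark matches to GAAA, any 2 bases and GAAA on either strand. The windows are chr9:5450292-5450591 (plus strand) for CD274, chr6:32853655-32853954 (minus strand) for TAP1, chr6:32838690-32838989 (minus strand) for TAP2, chr6:33314029-33314328 (minus strand) for TAPBP, chr6:32843998-32844297 (minus strand) for PSMB8 and chr15:44711267-44711566 (plus strand) for B2M.
CD274: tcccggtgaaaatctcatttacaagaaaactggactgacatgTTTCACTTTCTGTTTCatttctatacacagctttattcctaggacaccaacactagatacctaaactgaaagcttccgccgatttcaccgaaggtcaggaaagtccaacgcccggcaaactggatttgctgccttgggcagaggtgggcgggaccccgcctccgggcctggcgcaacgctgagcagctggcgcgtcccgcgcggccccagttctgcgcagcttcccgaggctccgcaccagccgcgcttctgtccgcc
TAP1: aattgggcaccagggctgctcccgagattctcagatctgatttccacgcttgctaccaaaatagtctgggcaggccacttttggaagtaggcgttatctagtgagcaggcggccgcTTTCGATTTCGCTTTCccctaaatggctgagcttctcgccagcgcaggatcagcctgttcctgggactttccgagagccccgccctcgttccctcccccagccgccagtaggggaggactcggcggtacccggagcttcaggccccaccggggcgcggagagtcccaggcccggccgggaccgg
TAP2: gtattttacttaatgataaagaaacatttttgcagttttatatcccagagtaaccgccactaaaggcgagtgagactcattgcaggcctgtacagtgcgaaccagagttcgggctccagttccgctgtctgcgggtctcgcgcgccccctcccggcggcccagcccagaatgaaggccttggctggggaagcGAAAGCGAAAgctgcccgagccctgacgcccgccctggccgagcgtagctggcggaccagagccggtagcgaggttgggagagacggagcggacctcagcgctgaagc
TAPBP: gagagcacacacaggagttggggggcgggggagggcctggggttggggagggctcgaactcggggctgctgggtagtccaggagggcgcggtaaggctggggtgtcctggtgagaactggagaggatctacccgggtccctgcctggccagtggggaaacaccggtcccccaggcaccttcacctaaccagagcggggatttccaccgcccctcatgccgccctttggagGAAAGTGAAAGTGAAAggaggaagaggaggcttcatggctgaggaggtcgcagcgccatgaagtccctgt
PSMB8: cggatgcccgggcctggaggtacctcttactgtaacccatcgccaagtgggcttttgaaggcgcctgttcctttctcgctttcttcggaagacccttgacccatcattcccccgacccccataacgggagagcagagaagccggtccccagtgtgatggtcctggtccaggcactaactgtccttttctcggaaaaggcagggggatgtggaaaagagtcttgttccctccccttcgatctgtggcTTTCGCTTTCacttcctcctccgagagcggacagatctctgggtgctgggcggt
B2M: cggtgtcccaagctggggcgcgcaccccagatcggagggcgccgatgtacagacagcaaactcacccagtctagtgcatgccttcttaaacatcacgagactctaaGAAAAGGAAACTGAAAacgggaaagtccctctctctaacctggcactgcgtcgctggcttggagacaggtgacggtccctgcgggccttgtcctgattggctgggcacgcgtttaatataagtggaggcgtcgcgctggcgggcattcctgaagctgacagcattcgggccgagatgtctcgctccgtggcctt
In CD274, TAP1, TAPBP and B2M 2 overlapping matches make up a run of 3 half-sites. A match was found in 6 of the 11 windows of these 9 genes and in 3.57% of all 35116 windows. The other windows, those of HLA-B, HLA-C and PSMB9 and the second windows of TAP1 and PSMB8, did not hold these letters. An AP-2 motif, GCCNNNGGC on either strand, was found in the windows of CD274 (GCCTTGGGC) and PSMB9 (GCCCCAGGC), 2 of the 9 genes, against 26.6% of all 27305 genes with a window. The gamma-activated site TTCNNNGAA was found for CD274, PSMB8 and TAP1 (9.38% of all genes and 7.66% of all windows). For TAP1 it was found only in the second window, which is not shown. The kappa B letters, GGG, any 5 bases and CC, were found for 7 of the 9 genes (61.7% of all genes and 58.7% of all windows). None of these other matches overlapped the capitals in the 6 windows shown. These matches describe letters and were not tested as binding sites.

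The targeted gene fell in each of the 3 tables. TFAP2C was at 53.9 FPKM in SKBR3 siAP2C cells and 157 FPKM in SKBR3 siNT cells, at 21.98 FPKM in HCC1954 siAP2C and 92.4 FPKM in HCC1954 siNT cells, and at 3.46 FPKM in HCC1954 shAP2C and 81.0 FPKM in HCC1954 shNT clones. Genes called in either direction made up 33.2% of 10046 tested genes with siRNA in SKBR3, 3.21% of 11078 with siRNA in HCC1954 and 75.5% of 9734 with shRNA in HCC1954. Of 9 breast carcinoma markers, 8 were at 1 FPKM or more in both SKBR3 groups and 9 in each HCC1954 group. With shRNA 7 of the 9 tested markers fell, TFAP2C among them, and 2 rose, against 39.1% falls and 36.4% rises among all tested genes. The summed level of the markers was 2030 FPKM in shAP2C clones and 3431 FPKM in shNT clones, a lower sum that rests on ERBB2. ERBB2, the HER2 gene, was at 20.8 FPKM in shAP2C clones and 1525 FPKM in shNT clones, the cadherin gene CDH1 at 20.7 FPKM in shAP2C and 149 FPKM in shNT clones, and the keratin gene KRT19 at 634 FPKM in shAP2C and 19.9 FPKM in shNT clones. EPCAM was at 161 FPKM in shAP2C and 112 FPKM in shNT clones, and KRT8 at 807 FPKM in shAP2C and 898 FPKM in shNT clones. The shAP2C clones thus stood apart from the shNT clones in ERBB2, CDH1 and KRT19 as well as in the HLA-C entries described with the class I genes. Of 12 leukocyte markers, 1 to 3 reached 1 FPKM in any group, and the pan-leukocyte gene PTPRC was listed at 0 in SKBR3 siNT cells and in shAP2C clones. Their summed level was 45.1 FPKM in SKBR3 siAP2C and 49.1 FPKM in SKBR3 siNT cells, and between 5.37 and 10.5 FPKM in the 4 HCC1954 groups. The 6 fibroblast markers summed to 0.34 to 1.963 FPKM in any group, with LUM listed at 0 in all 6. The 5 endothelial markers summed to 29.3 FPKM in SKBR3 siAP2C and 10.99 FPKM in SKBR3 siNT cells, to 19.7 FPKM in HCC1954 siAP2C and 31.5 FPKM in HCC1954 siNT cells, and to 0.18 FPKM in shAP2C and 21.6 FPKM in shNT clones, with TEK at 0 in SKBR3 siNT cells, CDH5 at 0 in shAP2C clones and 0 to 2 markers at 1 FPKM or more. The part of these marker levels in the results was not tested.

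In HCC1954 cells, CD274 rose after TFAP2C siRNA while the 8 antigen presentation genes were not called. CD274 was at 73.6 FPKM in siAP2C cells and 24.8 FPKM in siNT cells, a 2.97-fold higher summed level. Most of this difference lay in 1 of its 4 RefSeq entries. NM_014143 was at 66.7 FPKM in siAP2C and 19.97 FPKM in siNT cells, with a log2 ratio of 1.74 ± 0.44 (SE from the deposited statistic) and q = 4.25e-03 in the authors' deposited table. The entries NM_001267706 (4.06 FPKM in siAP2C and 2.78 FPKM in siNT cells, q = 0.926 in the authors' deposited table) and NM_001314029 (2.86 FPKM in siAP2C and 2.03 FPKM in siNT cells, q = 0.958 in the authors' deposited table) were not called. Rises made up 2.27% and falls 0.948% of the tested genes in this comparison, and of the 9 genes described here 1 rose and 0 fell.

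CD274 had lower levels in both SKBR3 groups than in the HCC1954 siRNA groups, whose table was normalized separately, and its change in SKBR3 was not tested. It was at 2.58 FPKM in SKBR3 siAP2C cells and 3.06 FPKM in SKBR3 siNT cells, and the authors' tool completed a test for 0 of its 4 entries there. In HCC1954 shAP2C clones it was at 1.14 FPKM, against 16.0 FPKM in shNT clones. In that comparison NM_014143 was at 0.0398 FPKM in shAP2C and 8.40 FPKM in shNT clones (q = 4.58e-04 in the authors' deposited table), and the other entries, which were not tested, held most of the remaining signal. CD274 thus rose with siRNA and fell with shRNA against the same gene in cells labelled HCC1954, a line that was not authenticated. The difference between these log2 ratios, shRNA minus siRNA, was -9.46 with a 95% interval of -27.2 to 8.24 and did not pass the test of the difference. The standard error of the shRNA ratio was 9.02, since its deposited statistic was -0.856. With standard errors taken from the deposited p-values the interval was -13.6 to -5.30 and the difference passed. The siRNA p-value of the authors' test was 5e-05, the smallest listed there, so the standard error taken from it is only a bound.

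**Figure D1:**
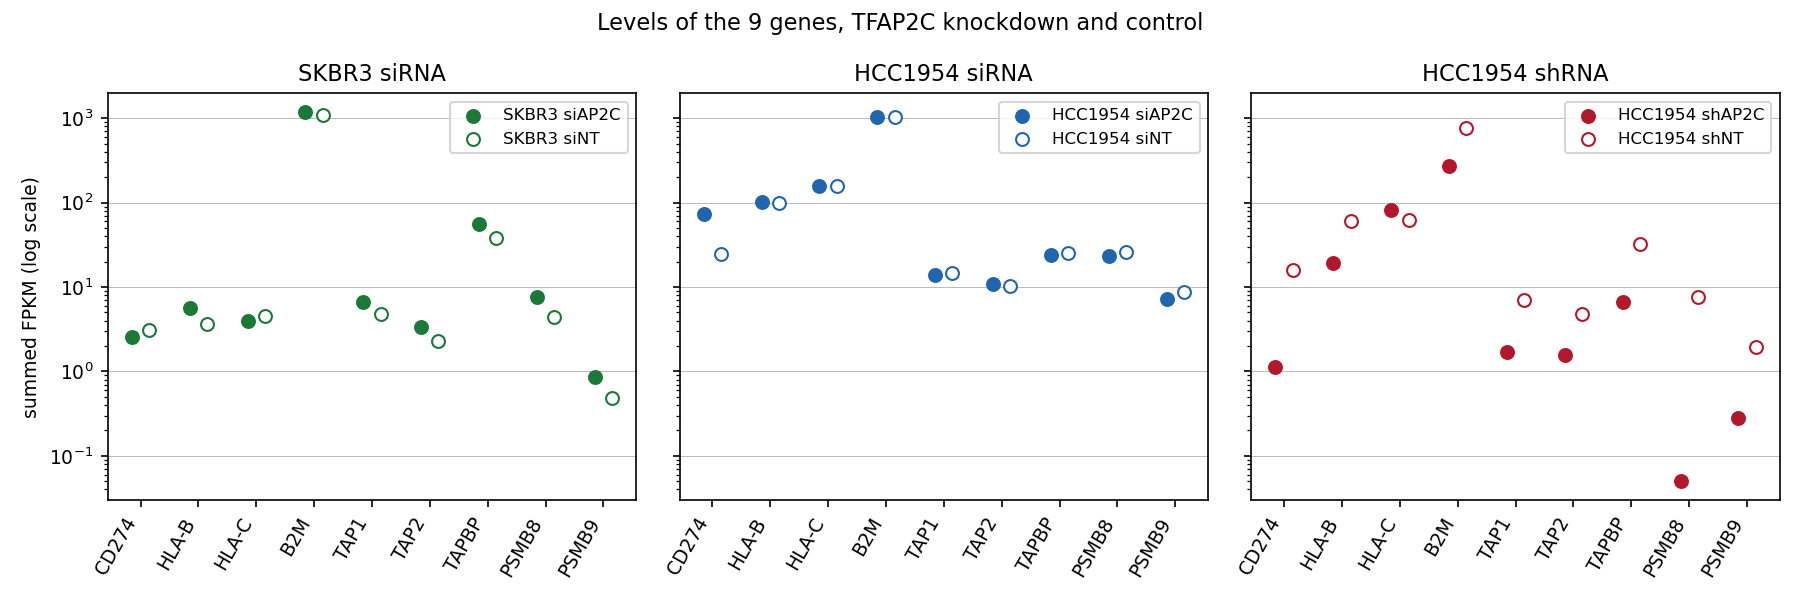
Summed FPKM (log axis) of the 9 genes in TFAP2C knockdown cells (filled) and their controls (open), with 1 pooled value per group and a panel per comparison. The tables were normalized separately. CD274 stands apart between filled and open symbols in HCC1954 with siRNA, while most filled symbols lie above the open ones in SKBR3 and below them with shRNA.

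Beside CD274 on the short arm of chromosome 9, PDCD1LG2 rose with siRNA in HCC1954 and 9 other neighbours fell with shRNA. PDCD1LG2, which encodes PD-L2, the other ligand of PD-1, starts 60.03 kb from the start of CD274. It was at 14.4 FPKM in HCC1954 siAP2C cells and 5.93 FPKM in siNT cells and rose (q = 4.25e-03 in the authors' deposited table). Of 9 other tested neighbours in the listed stretch, 0 were called with siRNA in HCC1954 (q under 0.05 in the authors' deposited table), with a median log2 ratio of -0.04. JAK2, the kinase gene of interferon-gamma signalling, was at 17.9 FPKM in siAP2C and 19.2 FPKM in siNT cells, and PLGRKT, which lies beside CD274, was at 119.96 FPKM in siAP2C and 117 FPKM in siNT cells.

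With shRNA, 9 of 9 tested neighbours fell, with a median log2 ratio of -1.97. Falls made up 39.1% of all tested genes in that comparison. ERMP1, a peptidase gene, was at 13.8 FPKM in shAP2C and 122 FPKM in shNT clones. JAK2 was at 2.44 FPKM in shAP2C and 16.8 FPKM in shNT clones, PLGRKT at 12.02 FPKM in shAP2C and 47.1 FPKM in shNT clones, and RIC1 at 7.10 FPKM in shAP2C and 39.96 FPKM in shNT clones. PDCD1LG2 was listed at 0 in shAP2C clones and at 1.88 FPKM in shNT clones and was not tested. The part that this stretch of falls has in the fall of CD274 was not tested. In SKBR3 1 neighbour rose and 3 of 8 fell, against 12.5% rises and 20.7% falls among all tested genes. PLGRKT was at 10.7 FPKM in SKBR3 siAP2C and 17.0 FPKM in siNT cells. There JAK2 was at 2.07 FPKM in siAP2C and 1.87 FPKM in siNT cells and PDCD1LG2 at 0.322 FPKM in siAP2C and 0.111 FPKM in siNT cells, both untested.

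**Figure D2:**
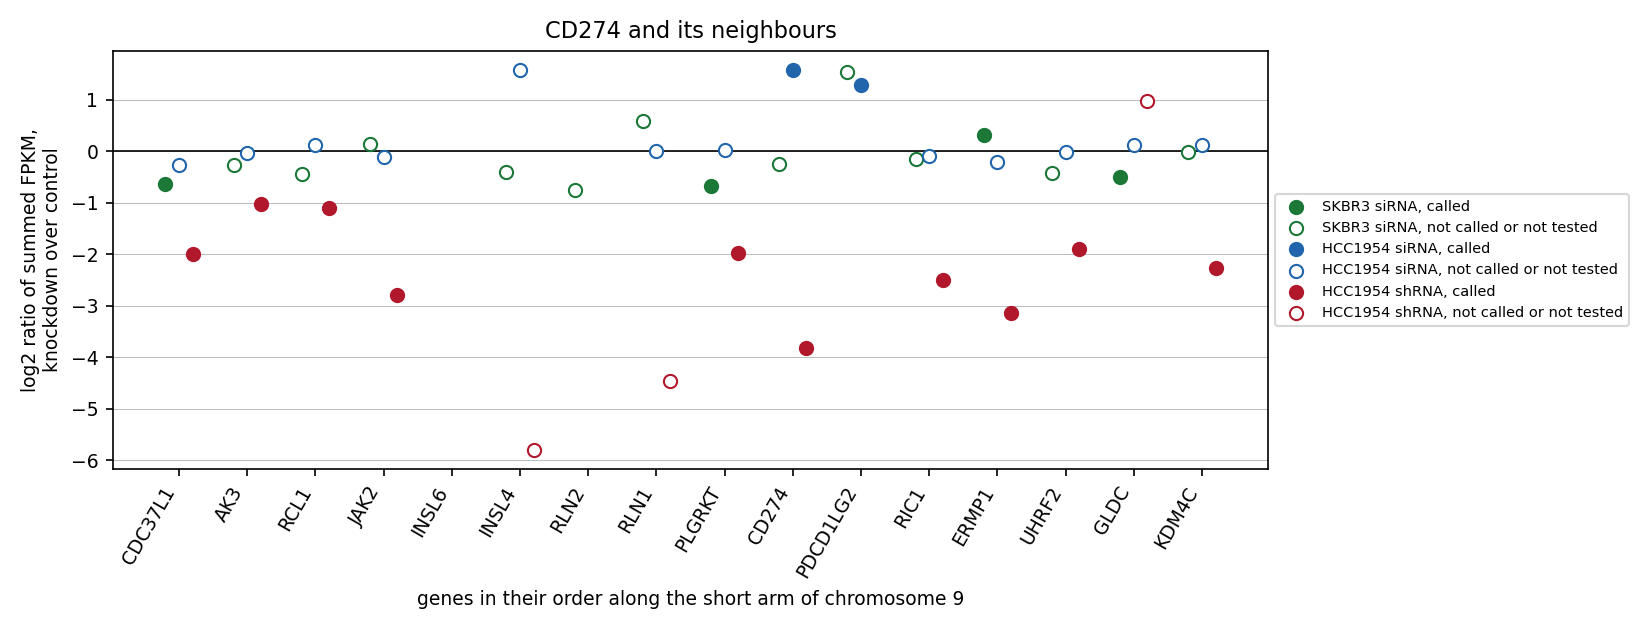
Log2 ratio of summed FPKM, knockdown over control, for CD274, PDCD1LG2 and 14 neighbours in their order along chromosome 9 (filled: called at q under 0.05; open: not called or not tested; no point where a group is listed at 0). With shRNA all 10 called genes, CD274 included, lie below 0, whereas with siRNA in HCC1954 the 2 called genes are CD274 and PDCD1LG2, both above 0.

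In SKBR3 cells, 5 of the 7 tested genes rose after TFAP2C siRNA and 0 fell. The risers were HLA-B, both transporter genes, tapasin and PSMB8. Rises made up 12.5% and falls 20.7% of all tested genes. HLA-B was at 5.65 FPKM in siAP2C and 3.64 FPKM in siNT cells (log2 ratio 0.63 ± 0.42, SE from the deposited statistic, q = 0.0172 in the authors' deposited table). The peptide transporter gene TAP1 was at 6.63 FPKM in siAP2C and 4.80 FPKM in siNT cells, and its partner TAP2 at 3.34 FPKM in siAP2C and 2.29 FPKM in siNT cells. In the authors' deposited table their main entries had q = 0.0166 for TAP1 and q = 8.36e-03 for TAP2.

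Tapasin (TAPBP) was the most abundant of the risers, at 56.6 FPKM in siAP2C and 38.5 FPKM in siNT cells. Both of its abundant entries rose: NM_003190 was at 31.1 FPKM in siAP2C and 22.3 FPKM in siNT cells (q = 0.0192 in the authors' deposited table), and NM_172209 at 24.9 FPKM in siAP2C and 15.8 FPKM in siNT cells (q = 0.0145 in the authors' deposited table). The immunoproteasome subunit gene PSMB8 was at 7.69 FPKM in siAP2C and 4.40 FPKM in siNT cells (q = 0.0437 in the authors' deposited table). PSMB9, its partner subunit, was at 0.852 FPKM in siAP2C and 0.487 FPKM in siNT cells and was not tested.

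B2M and HLA-C were not called in SKBR3. B2M was at 1189 FPKM in siAP2C and 1082 FPKM in siNT cells (q = 0.363 in the authors' deposited table). HLA-C was at 3.98 FPKM in siAP2C and 4.57 FPKM in siNT cells (q = 0.461 in the authors' deposited table). The summed levels of the 5 risers were 1.38- to 1.75-fold higher in siAP2C cells. At a q threshold of 0.01, TAP2 is the 1 gene of the 5 still called. The median log2 ratio of the 7 tested genes was 0.52, and that of all tested genes was -0.10.

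**Figure D3:**
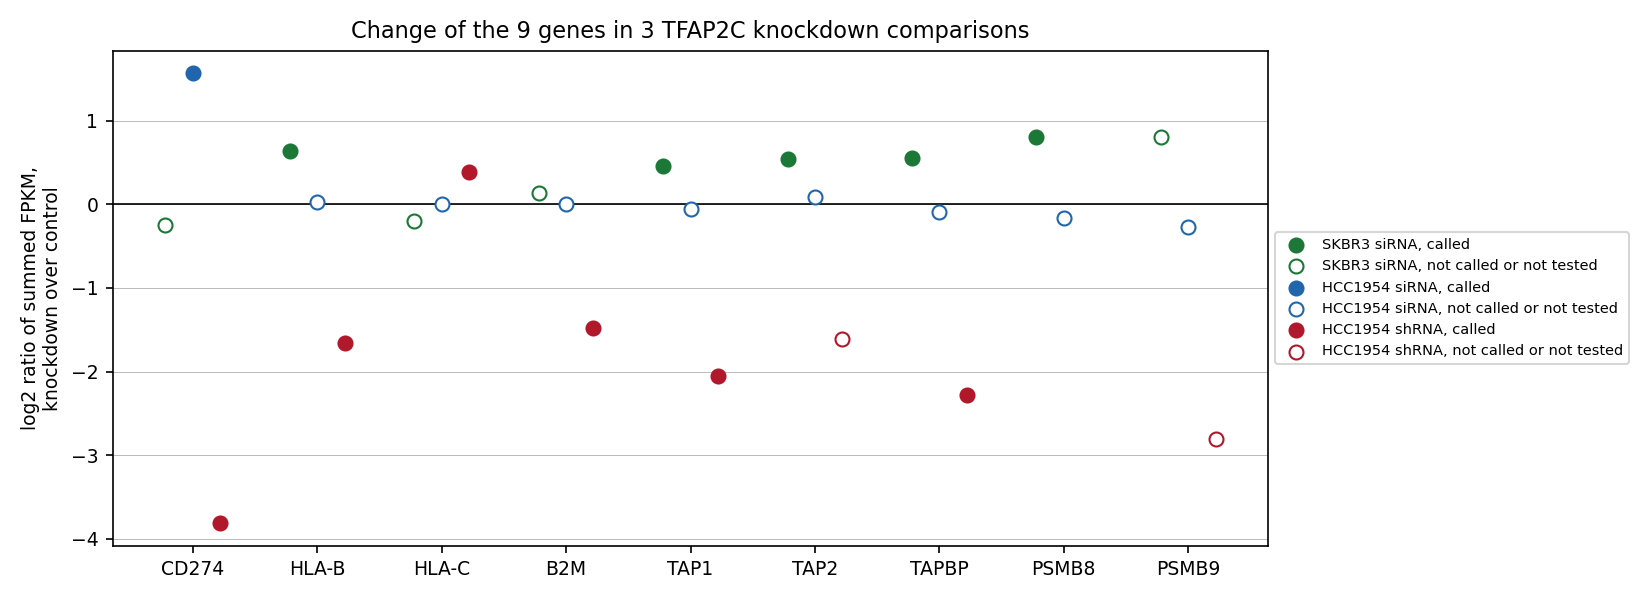
Log2 ratio of summed FPKM, knockdown over control, of the 9 genes in 3 comparisons (filled: called at q under 0.05 in the authors' deposited tables; open: not called or not tested). PSMB8 with shRNA has no point, since its main entry is listed at 0 in shAP2C clones, and the filled HLA-C point with shRNA sums an entry that rose and an entry that fell.

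In HCC1954 with siRNA, 0 of the 8 antigen presentation genes were called. B2M was at 1035 FPKM in siAP2C and 1027 FPKM in siNT cells, HLA-B at 101 FPKM in siAP2C and 98.98 FPKM in siNT cells, and HLA-C at 159.7 FPKM in siAP2C and 159 FPKM in siNT cells. Their main entries had log2 ratios of 0.01 ± 0.36 for B2M, 0.03 ± 0.30 for HLA-B and -0.00259 ± 0.29 for HLA-C (SE from the deposited statistic). TAP2 was at 11.004 FPKM in siAP2C and 10.3 FPKM in siNT cells, PSMB8 at 23.4 FPKM in siAP2C and 26.0 FPKM in siNT cells, and PSMB9 at 7.30 FPKM in siAP2C and 8.84 FPKM in siNT cells. Tested entries of TAP1, TAP2, TAPBP and HLA-C pointed in opposite directions without a call. For HLA-C the log2 ratios were near 0, at 0.04 for NM_001243042 and -0.00259 for NM_002117. TAP1 NM_000593 was at 8.19 FPKM in siAP2C and 6.83 FPKM in siNT cells, while NM_001292022 was at 5.79 FPKM in siAP2C and 7.69 FPKM in siNT cells. TAP2 NM_000544 was at 4.69 FPKM in siAP2C and 5.09 FPKM in siNT cells, while NM_018833 was at 5.73 FPKM in siAP2C and 5.23 FPKM in siNT cells. TAPBP NM_003190 was at 16.1 FPKM in siAP2C and 13.3 FPKM in siNT cells, while NM_172209 was at 6.88 FPKM in siAP2C and 11.5 FPKM in siNT cells.

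The siRNA groups of the 2 lines also differed in the order of the levels, though the order has no test. HLA-B and HLA-C were at 98.98 to 159.7 FPKM in the siRNA groups of HCC1954 and at 3.64 to 5.65 FPKM in those of SKBR3, and PSMB9 at 7.30 to 8.84 FPKM in HCC1954 and at 0.487 to 0.852 FPKM in SKBR3. TAPBP went the other way, at 23.9 to 25.5 FPKM in the siRNA groups of HCC1954 and at 38.5 to 56.6 FPKM in those of SKBR3, where it ranked 2 among the 9 genes. B2M was at 1027 to 1189 FPKM in these 4 groups and had the highest level of the 9 genes in all 6 groups. In shNT clones, the other HCC1954 control, HLA-B was at 60.4 FPKM, HLA-C at 62.1 FPKM, PSMB9 at 1.97 FPKM and TAPBP at 32.5 FPKM. Each of these values lay between the siRNA groups of HCC1954 and those of SKBR3, so the contrasts depend on the HCC1954 control used. All these levels come from separately normalized tables. The HLA-B, HLA-C, PSMB9 and TAPBP entries lie on alternate haplotype sequences and may hold only part of their signal in each line, which was not tested.

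In the HCC1954 shRNA clones, 6 of the 7 tested genes fell, and HLA-C was split between a rising and a falling entry. B2M was at 275 FPKM in shAP2C and 765 FPKM in shNT clones, with a log2 ratio of -1.48 ± 0.11 (SE from the deposited statistic). HLA-B was at 19.1 FPKM in shAP2C and 60.4 FPKM in shNT clones (log2 ratio -1.66 ± 0.23). TAP1 was at 1.69 FPKM in shAP2C and 7.02 FPKM in shNT clones, and TAPBP at 6.70 FPKM in shAP2C and 32.5 FPKM in shNT clones. In the authors' deposited table the main entries of these 4 genes each had q = 1.21e-04, the smallest q listed there. Of all tested genes 39.1% fell and 36.4% rose in this comparison.

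PSMB8 and PSMB9 stood at 0.281 FPKM or less in the shRNA knockdown clones. The main PSMB8 entry was listed at 0 in shAP2C clones and at 6.42 FPKM in shNT clones (q = 0.0109 in the authors' deposited table), and its other entry at 0.0499785 FPKM in shAP2C and 1.21 FPKM in shNT clones. PSMB9 was at 0.281 FPKM in shAP2C and 1.97 FPKM in shNT clones and was not tested. TAP2 was at 1.56 FPKM in shAP2C and 4.78 FPKM in shNT clones, also without a completed test. The median log2 ratio of the 6 tested genes with a ratio was -1.91, against -0.03 for all tested genes.

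The HLA-C entries exchanged places between the shRNA groups. NM_001243042 was at 72.3 FPKM in shAP2C and 5.26 FPKM in shNT clones, and NM_002117 at 9.18 FPKM in shAP2C and 56.9 FPKM in shNT clones, each with q = 1.21e-04 in the authors' deposited table. NM_001243042 made up 88.7% of the HLA-C signal in shAP2C and 8.46% in shNT clones. In the siRNA groups of HCC1954 its share was 29.9% in siAP2C and 29.3% in siNT cells, and in SKBR3 it was 8.20% in siAP2C and 5.02% in siNT cells. The share was thus close within each siRNA pair, far apart within the shRNA pair, and different between the 2 kinds of HCC1954 control. The summed HLA-C level was 81.5 FPKM in shAP2C and 62.1 FPKM in shNT clones, the 1 gene of the 9 with a higher sum in shAP2C clones. These entries are listed on different haplotype sequences (NM_001243042 on chr6_ssto_hap7, NM_002117 on chr6_qbl_hap6), and the part of this placement in the exchange was not tested.

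**Figure D4:**
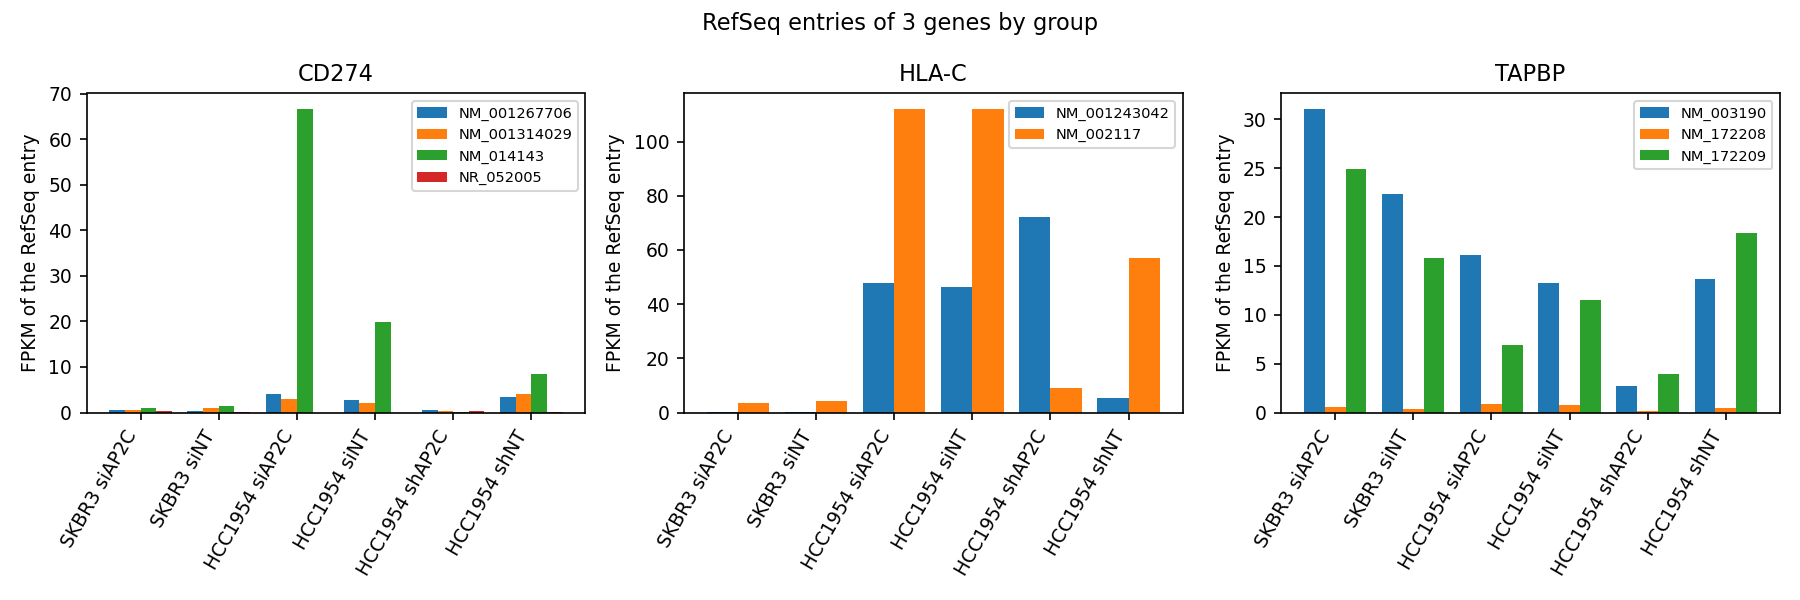
FPKM of each RefSeq entry of CD274, HLA-C and TAPBP in the 6 groups, 1 pooled value per bar. The CD274 signal in HCC1954 siAP2C cells lies almost wholly in NM_014143, and NM_001243042 is the larger HLA-C entry in the shAP2C clones alone, at 72.3 FPKM.

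Differences between the comparisons were tested directly for the main entries. HCC1954 siRNA minus SKBR3 siRNA gave 0 of 7 testable genes at an adjusted p under 0.05 and 0 at an unadjusted p under 0.05 (z test of the difference). Among all 9272 genes compared, 0.475% were called by this test. The largest of these differences was that of PSMB8, -1.01 with a 95% interval of -2.73 to 0.72, and that of HLA-B was -0.60 with an interval of -1.61 to 0.40, so the rises in SKBR3 were not shown to differ from the values in HCC1954. With standard errors from the deposited p-values, 0 of the 7 genes passed after adjustment, against 12.2% of all genes compared, and HLA-B and PSMB8 were under 0.05 before adjustment. CD274 could not be tested here.

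HCC1954 shRNA minus SKBR3 siRNA gave 5 of 5 testable genes, against 26.7% of 8573 genes (60.6% with standard errors from the deposited p-values, also 5 of 5). TAP1 differed by -2.69 (95% interval -4.27 to -1.10) and B2M by -1.61 (-2.08 to -1.14). HLA-C and TAPBP had different main entries in the 2 tables, and HLA-C, at 4.03, went the other way from the rest. With the same entry in both tables, chosen after seeing the data, 4 of 5 passed and HLA-C differed by -2.38. HCC1954 shRNA minus HCC1954 siRNA gave 3 of 6, HLA-B, HLA-C and B2M, against 13.4% of 8983 genes, and with standard errors from the deposited p-values 6 of 6, against 49.6%. TAP1 in that contrast differed by -2.43 (95% interval -4.38 to -0.47) and did not pass after adjustment. HLA-C there differed by 3.79 between different main entries and by -2.63 with NM_002117 in both.

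**Figure D5:**
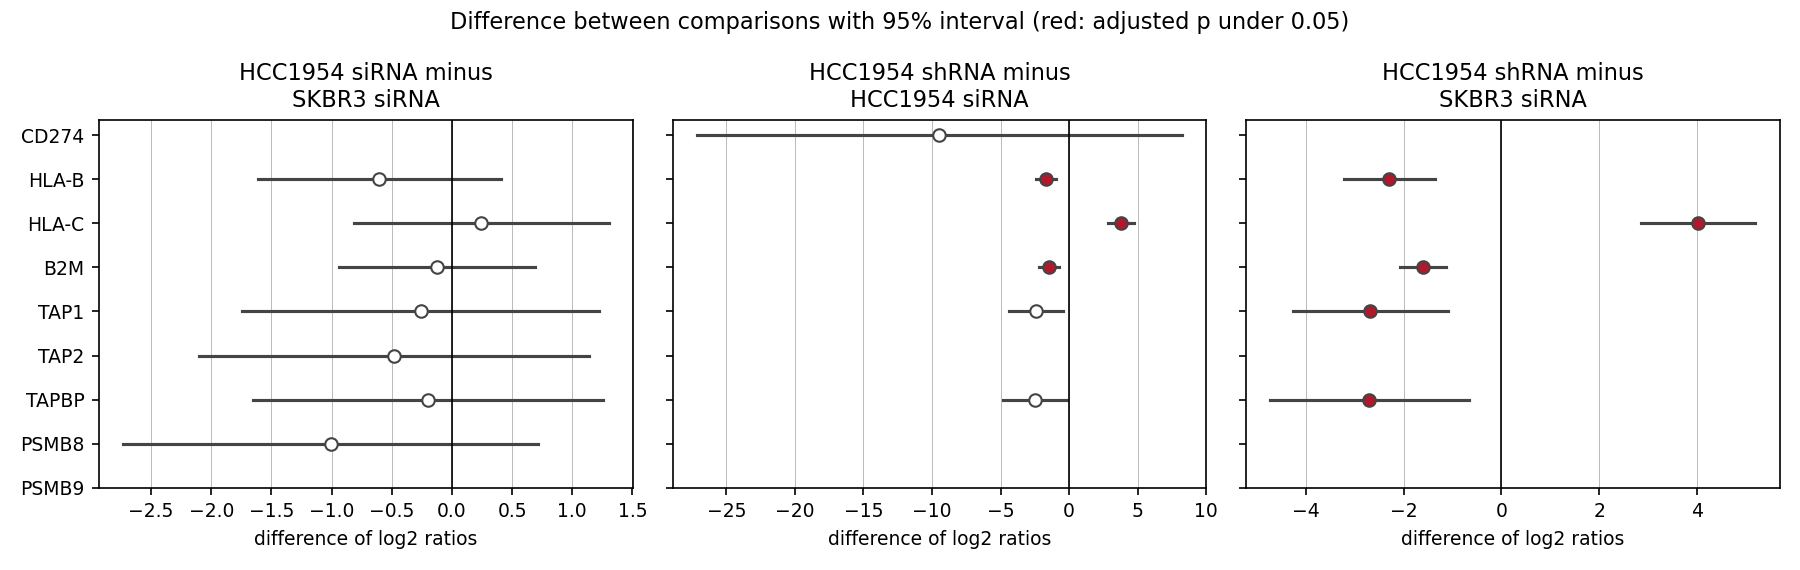
Difference of log2 ratios between comparisons for each testable gene, with 95% intervals from the deposited statistics (red: adjusted p under 0.05). Genes with no point could not be tested. All 7 intervals of HCC1954 siRNA minus SKBR3 siRNA cross 0, and all 5 of HCC1954 shRNA minus SKBR3 siRNA lie off 0, that of HLA-C above it. The HLA-C and TAPBP points of both shRNA contrasts, and the TAP2 point of the siRNA contrast, set different entries against each other.

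Genes that act upstream of antigen presentation were described from lists. Of 10 tested MHC gene regulators 3 rose and 2 fell in SKBR3, against 12.5% rises and 20.7% falls among all tested genes. IRF1, an interferon-induced activator of class I genes, was at 46.6 FPKM in SKBR3 siAP2C and 19.8 FPKM in siNT cells and rose (q = 4.41e-04 in the authors' deposited table). It was at 42.4 FPKM in both siRNA groups of HCC1954 (q = 0.978 in the authors' deposited table), and fell to 5.96 FPKM in shAP2C clones, against 34.9 FPKM in shNT clones (q = 1.21e-04 in the authors' deposited table). NLRC5, the class I transactivator, was at 1.17 FPKM in SKBR3 siAP2C and 0.42 FPKM in siNT cells and at 0.846 FPKM in shAP2C and 1.27 FPKM in shNT clones, untested in both. In HCC1954 siAP2C cells it was at 4.41 FPKM, and in siNT cells at 3.43 FPKM (q = 0.734 in the authors' deposited table). With siRNA in HCC1954 0 of 11 tested regulators were called, against 3.21% of all tested genes. With shRNA 0 of 9 rose and 3 fell, among them IRF2, against 36.4% rises and 39.1% falls among all tested genes.

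Of 16 tested interferon signalling genes, 6 rose and 1 fell in SKBR3, against 12.5% rises and 20.7% falls among all tested genes. With siRNA in HCC1954 0 were called, against 3.21%. With shRNA 2 rose and 10 fell, against 36.4% rises and 39.1% falls, and 75.5% of all tested genes were called there. In SKBR3 the receptor subunit gene IFNGR2 was at 20.6 FPKM in siAP2C and 11.05 FPKM in siNT cells, and rose. Of 2 feedback inhibitors of JAK signalling, SOCS1 fell to 1.74 FPKM in siAP2C cells, against 6.30 FPKM in siNT cells, and SOCS3 rose to 4.58 FPKM in siAP2C cells, against 2.06 FPKM in siNT cells. IFNGR1 fell to 19.9 FPKM in shAP2C clones, against 145 FPKM in shNT clones, and IRF9 to 4.88 FPKM, against 33.6 FPKM.

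The constitutive proteasome subunit genes, whose products the immunoproteasome subunits replace, rose with shRNA while PSMB8 fell. PSMB5 rose to 208 FPKM in shAP2C clones, against 146 FPKM in shNT clones, PSMB6 to 137 FPKM, against 79.96 FPKM, and PSMB7 to 100.1 FPKM, against 77.5 FPKM. PSMB6 and PSMB7 were chosen after their values were seen. The third immunoproteasome subunit gene, PSMB10, fell to 13.9 FPKM in shAP2C clones, against 24.8 FPKM in shNT clones, and the proteasome activator gene PSME2 to 5.99 FPKM, against 9.76 FPKM. In all, 7 of 12 tested genes of this list rose and 2 fell with shRNA, against 36.4% rises and 39.1% falls among all tested genes. In either siRNA comparison 0 of 12 were called, against 33.2% of all tested genes in SKBR3 and 3.21% in HCC1954.

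Further peptide loading and trimming genes changed in both directions. In SKBR3 1 of 10 rose, the trimming peptidase gene ERAP1 (17.9 FPKM in siAP2C and 12.6 FPKM in siNT cells for its main entry), and 3 fell, among them the chaperone gene CALR (322 FPKM in siAP2C and 414 FPKM in siNT cells). With shRNA 5 of 8 rose and 2 fell, against 36.4% rises and 39.1% falls among all tested genes. CALR rose to 589.6 FPKM in shAP2C clones, against 219 FPKM in shNT clones, while the main entry of ERAP1 fell to 3.58 FPKM, against 9.57 FPKM. With siRNA in HCC1954 0 of 10 were called, against 3.21% of all tested genes. The shares of all tested genes in SKBR3 were 12.5% rises and 20.7% falls.

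Other class I heavy chain genes changed in both directions with shRNA. Of 3 tested, 2 rose and 1 fell, in a comparison where 75.5% of all tested genes were called. HFE, which encodes a class I-like protein of iron regulation, rose to 13.6 FPKM in shAP2C clones, against 7.06 FPKM in shNT clones, and HLA-E fell to 8.22 FPKM in shAP2C clones, against 14.5 FPKM in shNT clones. In the siRNA comparisons 0 of 2 tested genes were called in SKBR3 and 0 of 5 in HCC1954, against 33.2% and 3.21% of all tested genes.

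Among 16 other checkpoint ligands and partners, 4 of 9 tested rose and 1 fell in SKBR3, 2 of 12 rose and 1 fell with siRNA in HCC1954, and 1 of 9 rose and 6 fell with shRNA. Among all tested genes 12.5% rose and 20.7% fell in SKBR3, 2.27% and 0.948% with siRNA in HCC1954, and 36.4% and 39.1% with shRNA. LGALS9, the galectin-9 gene, rose to 16.6 FPKM in SKBR3 siAP2C cells, against 5.84 FPKM in siNT cells, and fell to 2.25 FPKM in shAP2C clones, against 9.12 FPKM in shNT clones. NT5E, whose product makes extracellular adenosine, rose in its main entry to 61.2 FPKM in SKBR3 siAP2C cells, against 12.8 FPKM in siNT cells. IDO1, an enzyme gene of tryptophan breakdown, rose in its main entry to 21.3 FPKM in HCC1954 siAP2C cells, against 11.7 FPKM in siNT cells, and was listed at 0 in shAP2C and at 13.2 FPKM in shNT clones. VTCN1, the gene of the checkpoint ligand B7-H4, fell in all 3 comparisons, to 154 FPKM in SKBR3 siAP2C, against 185 FPKM in siNT cells, to 44.4 FPKM in HCC1954 siAP2C, against 70.2 FPKM in siNT cells, and to 1.08 FPKM in shAP2C, against 46.1 FPKM in shNT clones. With siRNA in HCC1954, CD274, PDCD1LG2 and IDO1 thus rose while VTCN1 fell.

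Regulators of PD-L1 transcript or protein gave 3 rises and 1 fall among 14 in SKBR3, 0 rises and 1 fall with siRNA in HCC1954, and 5 rises and 7 falls with shRNA. Of all tested genes 33.2%, 3.21% and 75.5% were called in these comparisons, so the counts lay near those shares. CMTM6, which keeps PD-L1 at the cell surface, rose to 41.0 FPKM in SKBR3 siAP2C cells, against 30.9 FPKM in siNT cells. YAP1 was the 1 gene called with siRNA in HCC1954, where its main entry fell to 41.1 FPKM in siAP2C cells, against 66.6 FPKM in siNT cells. With shRNA the main entry of STAT3, a transcription factor that can induce CD274, fell to 10.0 FPKM in shAP2C clones, against 61.8 FPKM in shNT clones, and JUN fell to 5.49 FPKM in shAP2C clones, against 65.1 FPKM in shNT clones. MYC, another transcription factor of this list, rose to 96.3 FPKM in shAP2C clones, against 33.7 FPKM in shNT clones.

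The genes whose 3 log2 ratios lay nearest to those of CD274 (-0.25, 1.57 and -3.82 in SKBR3 siRNA, HCC1954 siRNA and HCC1954 shRNA) were THBS1 at a Euclidean distance of 0.92, TNFAIP3 at 1.04, SMAP1 at 1.21, SEMA3C at 1.34 and GLIDR at 1.35, among 10206 genes at 1 FPKM or more in all 6 groups. TNFAIP3, an inhibitor of NF-kB signalling, had log2 ratios of 0.30, 1.54 and -4.70. Those near TAP1 (0.47, -0.05 and -2.05) included SYDE2 and PRKCH at 0.10 each, C6orf132 at 0.10 and BIRC2 at 0.14. Likeness over 3 ratios is a description.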

How the data were processed

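Libraries came from a TruSeq kit, per the labels' protocols. The submitters' processing notes name Bowtie 0.12.2, Cuffdiff, hg19 and GRCh37. The FPKM values, 1 per RefSeq entry and group, were deposited by the authors with samples pooled. The test statistic is a score of the authors' tool, and p-values and q-values are those of the authors' deposited tables, per the file headers. The table taken as HCC1954 siRNA names only the siRNAs in its columns, and its line is that in the deposited file's name.

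Entries were matched to symbols through NCBI RefSeq names (65468 of 66321), and FPKM summed per symbol. A gene's call is that of its tested entry with the highest mean FPKM in that table. The deposited q could be recomputed from p by the Benjamini-Hochberg method to within a relative difference of 4.97e-06. The smallest p-value of the authors' test was 5e-05 in each comparison, and a standard error taken from it is only a bound. Differences between comparisons were tested as z with a normal approximation, taking the log2 ratio divided by the deposited statistic as standard error, with adjustment over all genes compared. A trial on simulated data drew its noise from the test's own standard errors, so it could not check whether these match the real spread. Read as normal quantiles, the deposited p-values were larger than the statistics by a median factor of 2.00 for SKBR3 siRNA, 2.46 for HCC1954 siRNA and 3.36 for HCC1954 shRNA, so standard errors from the p-values are mostly narrower. Named genes are the 9, TFAP2C, NLRC5, IRF1, JAK2, PDCD1LG2, up to 4 called genes per list and comparison with the largest log2 ratios, and the 5 nearest to CD274 and to TAP1. Some genes that this rule names are not reported here. The genes and lists were chosen with earlier results of these data known. Python 3.11.15, pandas 2.3.3 and scipy 1.17.1 were used.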

Additional observations from a re-analysis of the deposited data

Results flagged for a closer look

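The log2 ratios of 5 genes differed between comparisons by the z test of the difference, adjusted over all genes compared. For HCC1954 shRNA minus HCC1954 siRNA, HLA-B differed by -1.69 (95% interval -2.42 to -0.96), B2M by -1.49 (-2.22 to -0.76) and the main entries of HLA-C by 3.79 (2.83 to 4.74). For HCC1954 shRNA minus SKBR3 siRNA, HLA-B differed by -2.295 (-3.23 to -1.36), B2M by -1.61 (-2.08 to -1.14), TAP1 by -2.69 (-4.27 to -1.10), TAPBP by -2.71 (-4.74 to -0.67) and HLA-C by 4.03 (2.85 to 5.20). The HLA-C values set NM_001243042 with shRNA against NM_002117 with siRNA. With NM_002117 in both, HLA-C differed by -2.63 (-3.46 to -1.80) for HCC1954 shRNA minus HCC1954 siRNA and by -2.38 (-3.46 to -1.31) for HCC1954 shRNA minus SKBR3 siRNA, and both passed, so the direction of the HLA-C difference is that of the entry chosen. With NM_003190 in both tables, TAPBP differed from SKBR3 siRNA by -2.83 (-5.45 to -0.21) and did not pass after adjustment. Each of these differences involves the shRNA comparison, in which 75.5% of tested genes were called.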

How the results depend on the processing

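Of 106 log2 ratios of the 9 genes under other settings, 103 kept their direction. The settings were the main entry alone, pseudocounts of 1 and 0.1 FPKM, centring on the median of all genes, and primary chromosomes alone. A pseudocount added to both groups cannot turn a direction. A gene with 1 entry keeps its value with the main entry alone, so the count of 103 is not a measure of robustness. The 3 that turned were uncalled values of HCC1954 siRNA with the main entry alone: HLA-C -0.00259 (0.01 when summed), TAP1 0.26 (-0.05) and TAPBP 0.28 (-0.09), where other entries of the gene point the other way. A q threshold of 0.01 left 1 called gene in SKBR3, TAP2, in place of 5, and 6 in place of 7 with shRNA. With standard errors from the deposited p-values, 6 genes in place of 3 differed for HCC1954 shRNA minus HCC1954 siRNA. The other alternatives, among them the same entry in both tables, which was chosen after seeing the data, kept each count of called or differing genes within 1.5 times. Primary chromosomes alone could be tried for CD274 and B2M only, whose entries all lie there, so their values could not change. No paired analysis was possible because the deposited columns hold pooled groups, and for the same reason no replicate could be left out. Depth is unknown.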

Other observations

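Of 12 MHC class II and class II pathway genes, 0 reached 1 FPKM in shAP2C clones and 4 did in shNT clones, against 2 to 6 in the siRNA groups. In SKBR3 2 of 12 were tested and 1 rose, CTSS, the cathepsin S gene, to 20.2 FPKM in siAP2C cells, against 8.33 FPKM in siNT cells. The invariant chain gene CD74, named after its values were seen, was at 1.80 FPKM in SKBR3 siAP2C and 0.269 FPKM in siNT cells, at 9.24 FPKM in HCC1954 siAP2C and 5.19 FPKM in siNT cells (q = 0.515 in the authors' deposited table), and at 0.604 FPKM in shAP2C and 2.25 FPKM in shNT clones. With siRNA in HCC1954 0 of 5 tested class II genes were called, and with shRNA 0 of 2, against 3.21% and 75.5% of all tested genes. In SKBR3 12.5% of all tested genes rose.

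Ligands of natural killer cells changed in both directions. In SKBR3 1 of 3 tested rose, ULBP1, to 4.67 FPKM in the main entry of siAP2C cells, against 1.81 FPKM in siNT cells, and 2 fell, ULBP3 and CLEC2D. With shRNA ULBP2 fell to 3.68 FPKM in shAP2C clones, against 15.7 FPKM in shNT clones, and ULBP3 and CLEC2D rose. With siRNA in HCC1954 0 of 6 were called, against 3.21% of all tested genes. The shares of all tested genes called were 33.2% in SKBR3 and 75.5% with shRNA.

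Genes of other function in the MHC region, near the antigen presentation genes, gave 0 rises and 2 falls among 15 in SKBR3, 0 of 19 called with siRNA in HCC1954, and 1 rise and 6 falls among 10 with shRNA. In SKBR3 the 2 that fell were TUBB and RPS18. Of all tested genes there 12.5% rose and 20.7% fell. With shRNA 36.4% of all tested genes rose and 39.1% fell, and with siRNA in HCC1954 3.21% were called.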
